A study of Mus musculus with 10 samples.

Results

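The intracellular brakes of T cell receptor signalling described here are 10 genes: the tyrosine phosphatases Ptpn6 and Ptpn22, the Src-like adaptors Sla and Sla2, the phosphatase-like proteins Ubash3a and Ubash3b, the ubiquitin ligases Cbl and Cblb, and the diacylglycerol kinases Dgka and Dgkz. They were read by 23 probe sets, all those that the platform annotation gave to exactly 1 of these symbols, out of 45101 on the array, where 18193 genes had a probe set of their own. The genes had between 1 and 4 probe sets each. All 10 arrays came from mouse T cell acute lymphoblastic leukemia driven by ICN1, an activated NOTCH1. Leukemic cells of both groups carried the ROSCreERT2 transgene, a Cre recombinase that tamoxifen activates, and 2 copies of a floxed CnB1 (current symbol Ppp3r1), which encodes the regulatory subunit of the phosphatase calcineurin. Leukemic secondary recipient mice were given tamoxifen (TAM, 5 arrays), which deletes CnB1, or its corn oil carrier (OIL, 5 arrays), which leaves it in place. Tamoxifen was thus given only to the mice of the deleted group, so that deletion and drug cannot be told apart. Marrow cells were flow-sorted on GFP or a similar marker from marrow with over 50% leukemic cells. The names 204, 206, F3.1, F3.2 and F3 occur in OIL and in TAM. The arrays of F3.1 and F3.2 also carry a last number, not shared by OIL and TAM, that was ignored here. The labels state neither that each array came from its own mouse nor what the F3 names mean. The sample titles give the F3 arrays a common number where 204 and 206 stand in the others, except TAM F3, whose title has none. Whether the 5 labels are 5 separate leukemias is thus not known, and counts and blocks by label take them as separate. The p-values therefore reflect the spread among these arrays alone, some of which may be technical.

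T cell receptor signalling starts when the kinases Lck and Zap70 phosphorylate the receptor chains and adaptors, and calcium released downstream activates calcineurin and its targets, the NFAT transcription factors. The brakes act at successive steps. Ptpn6 (SHP-1), Ptpn22 and Ubash3b remove phosphates from the proximal kinases. Sla (SLAP) and Sla2 bring Cbl ligases to the receptor complex, which is then taken in and degraded, and Cbl and Cblb tag receptor chains, kinases and adaptors with ubiquitin. Dgka and Dgkz convert diacylglycerol, the lipid that activates RasGRP1 and protein kinase C, to phosphatidic acid. In T cells several of these proteins are known to set how strong a receptor signal has to be.

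Promoter sequences of 9 of the 10 genes were matched in RefSeq's table of assembly GRCm38.p6, which holds 250 bases before and 50 after each start. The following pair is shown because Ptpn6 had lower and Cblb higher values in TAM than in OIL. Capitals mark matches on either strand to GGAAA, the core that NFAT factors bind, and to TGGGAA, the core of the NOTCH partner RBPJ.
Ptpn6, chr6:124738660-124738959, minus strand: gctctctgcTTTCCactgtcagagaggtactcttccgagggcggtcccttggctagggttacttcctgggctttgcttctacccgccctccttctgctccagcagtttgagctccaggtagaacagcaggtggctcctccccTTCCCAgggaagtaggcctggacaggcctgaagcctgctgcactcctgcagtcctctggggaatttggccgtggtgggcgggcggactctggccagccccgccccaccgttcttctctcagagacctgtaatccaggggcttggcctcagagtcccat
Cblb, chr16:52031299-52031598, plus strand: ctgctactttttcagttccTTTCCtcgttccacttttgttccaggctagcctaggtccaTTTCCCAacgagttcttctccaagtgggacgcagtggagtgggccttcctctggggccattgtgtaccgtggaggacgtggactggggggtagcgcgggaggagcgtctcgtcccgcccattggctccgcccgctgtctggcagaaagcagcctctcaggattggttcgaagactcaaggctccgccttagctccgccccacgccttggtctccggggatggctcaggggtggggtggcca
Both windows held GGAAA, 1 match in Ptpn6 and 2 in Cblb, 1 of which overlaps the TGGGAA match there. GGAAA was found in 61.3% of all 32851 promoter windows and in 11 of the 15 windows of the brake genes, and TGGGAA in 25.6% of all windows and in 6 of those 15. The AP-1 motif TGANTCA, found in 7.81% of all windows, was in no window of the brake genes. A match to such short letters is a description of the window, not a binding site.

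The deleted gene was checked first. Its dimmer probe set read 5.04, 4.49, 5.54, 5.51 and 6.04 log2 units in OIL (labels 204, 206, F3.1, F3.2 and F3, the order used throughout) and 3.18, 3.30, 3.02, 3.59 and 3.21 in TAM. The groups did not overlap, and the difference was -2.06 (two-sided exact permutation p = 0.00794, the smallest possible with 5 arrays a group). All TAM values lay below 4.04, the limit for dim probe sets used here, so the size of the fall may be understated. Whether these values lie at a detection floor was not tested. At the other, brighter probe set Ppp3r1 differed by only -0.12 (exact permutation p = 0.0238), and whether either probe set lies within the deleted exons was not examined.

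Of the T cell markers Cd3e, Cd3g, Cd3d, Thy1, Cd5, Cd8a, Cd8b1, Cd4, Ptcra and Bcl11b, 10 of 10 lay above the limit for dim probe sets, a mean of 4.04 log2 units. Lck and Tcf7, also on that list of 12, had no probe set given to their symbol alone. The summed linear signal of the 10 ranged from 26100 to 30200 in OIL and from 27500 to 31800 in TAM, higher in TAM for 4 of 5 labels. The sum of the 7 measured of 8 B cell markers ranged from 151 to 179 and from 136 to 150. It did not overlap between the groups and was higher in TAM for 0 of 5 labels. Cd79b and Ebf1 lay below the limit, and the brightest, Pax5, averaged 5.27 in OIL and 5.12 in TAM. The sum of the 6 measured of 9 erythroid markers ranged from 154 to 188 and from 157 to 176, with Hba-a1 and Car1 below the limit. It was higher in TAM for 1 of 5 labels. The natural killer and innate list ranged from 5690 to 7930 and from 6100 to 10300, higher in TAM for 3 of 5 labels, a sum made almost wholly by Gzma. Gzma averaged 12.75 in OIL and 12.95 in TAM, while no other measured gene of that list averaged above 4.99 in either group, and Klrd1 lay below the limit. Array medians lay between 5.07 and 5.13, and the closest pair of arrays was OIL F3.1 with OIL F3.2 (r = 0.997). The first principal component, with 37.7% of the variance, separated labels 204 and 206 from the F3 labels.

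Values below are log2 expression values made with RMA by the authors, and differences are TAM minus OIL on that log2 scale. Without regard to labels, none of the 23 probe sets passed limma's test (0 called at a Benjamini-Hochberg adjusted p under 0.05, against 0.102% of the 31526 probe sets tested). Before adjustment, 6 of 23 had a p under 0.05, against 10.9% of all. With the label entered as a block, so that each TAM array was set against the OIL array of its label, 2 of 23 fell and 0 rose, against 0.815% lower and 0.986% higher, together 1.8%, among all probe sets. Before adjustment 12 of 23 had a p under 0.05 in that fit, against 20% of all. Those 2 were a probe set of Ptpn6 and a probe set of Sla. The median difference over the 23 was 0.10, with 13 above and 10 below 0, and over all tested probe sets it was -0.02. The brakes thus held members with differences of both signs, and each class is described on its own.

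**Figure D1:**
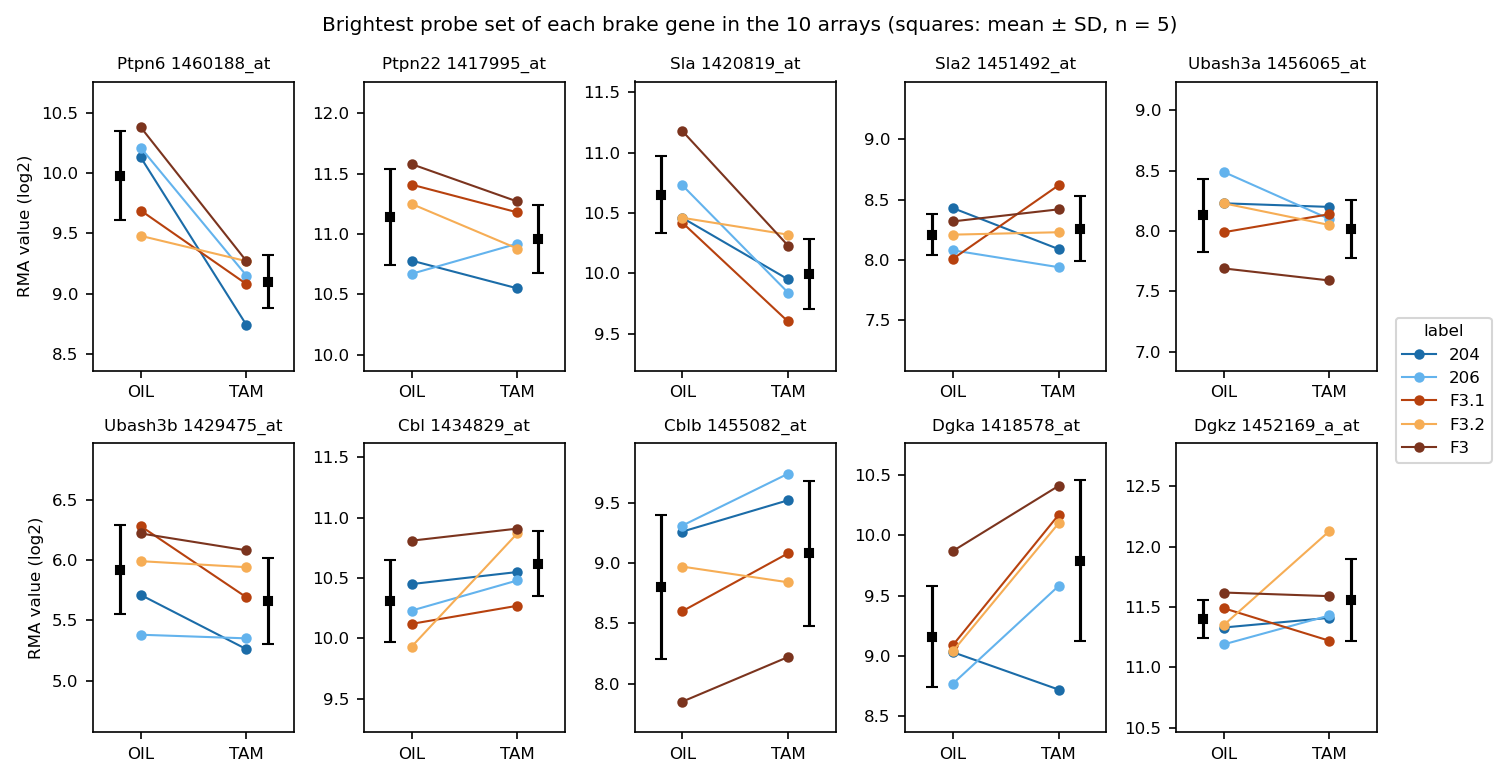
RMA values (log2) of the brightest probe set of each of the 10 genes in the OIL and TAM arrays, with lines joining the arrays of a label and squares giving the mean ± SD of 5 arrays; every panel spans the same 2.4 log2 units. The TAM arrays of Ptpn6 (8.74 to 9.27) and of Sla (9.60 to 10.32) lie below all OIL arrays.

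Ptpn6, the SHP-1 phosphatase, had lower transcript values in TAM. Its brighter probe set, 1460188_at, read 10.13, 10.21, 9.69, 9.48 and 10.38 in OIL and 8.74, 9.15, 9.08, 9.27 and 9.27 in TAM. All 5 TAM arrays lay below all 5 OIL arrays, which was so for 2 of the 23 probe sets and for 1.44% of all tested. OIL averaged 9.98 ± 0.37 and TAM 9.10 ± 0.22 (SD, n = 5), a difference of -0.88 ± 0.18 (SE) or 1.83-fold. In limma the adjusted p was 0.107 without the block, with a range of 0.0623 to 0.224 over 19 alternative settings, and 0.0461 with the block.

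The other Ptpn6 probe set, 1456694_x_at, gave 10.04, 10.03, 9.70, 9.54 and 10.26 in OIL and 8.79, 9.09, 9.27, 9.55 and 9.09 in TAM. Only TAM F3.2 reached the OIL range, by 0.01. The difference was -0.76 (95% interval -1.12 to -0.39), and its limma adjusted p was 0.134 without and 0.0874 with the block. The differences of both probe sets within labels 204, 206 and F3 were between -1.38 and -0.94, those within F3.1 were -0.61 and -0.43, and those within F3.2 were -0.21 and 0.01. In bulk samples, fewer cells that express a gene and less RNA per cell cannot be told apart.

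Myeloid cells also express Ptpn6. The summed signal of 11 myeloid markers ranged from 360 to 1550 in OIL and from 508 to 2830 in TAM, with Cd14 below the dim limit and S100a8 the brightest, and was higher in TAM for 3 of 5 labels. The B cell sum was higher in TAM for 0 of 5 labels. The part of myeloid, B or other cells in the Ptpn6 values was not tested.

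Ptpn22, which acts with the kinase Csk on Lck and Zap70, had 1 probe set. It read 10.78, 10.67, 11.41, 11.25 and 11.58 in OIL and 10.55, 10.92, 11.18, 10.88 and 11.27 in TAM. The groups overlapped over most of their range, with a difference of -0.18 and a 95% interval of -0.61 to 0.26 (limma adjusted p = 0.79, and 0.352 with the block). A fall of the size measured for the brighter Ptpn6 probe set, -0.88, lay outside that interval.

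Sla, the adaptor SLAP, was read by 4 probe sets, of which 3 were lower in TAM and 1 was not. The brightest, 1420819_at, read 10.46, 10.73, 10.42, 10.46 and 11.18 in OIL and 9.95, 9.84, 9.60, 10.32 and 10.23 in TAM. The groups did not overlap, and the difference was -0.66 ± 0.18 (SE), from 10.65 ± 0.32 to 9.99 ± 0.29 (SD, n = 5). Its limma adjusted p was 0.21 without the block and 0.0503 with it, just short of the limit of 0.05.

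The probe set that passed with the block was 1420818_at, at 8.01, 8.31, 7.28, 7.18 and 8.75 in OIL and 7.45, 7.33, 6.69, 6.80 and 7.85 in TAM. Its groups overlapped, since the F3.1 and F3.2 arrays were low and the F3 arrays high in both treatments. Within labels the difference ran from -0.98 to -0.38, a narrower spread (SD 0.25) than between the 5 arrays of a group (SD 0.67 in OIL and 0.48 in TAM). The mean of -0.68 had a 95% interval of -1.40 to 0.04 without the block (limma adjusted p = 0.479) and of -0.91 to -0.45 with it (0.0245).

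The remaining Sla probe sets differed from each other. Values of 1447813_x_at were 7.98, 8.29, 8.10, 7.95 and 8.66 in OIL and 7.64, 7.32, 7.15, 8.07 and 7.88 in TAM, a difference of -0.58 (limma adjusted p = 0.314, and 0.119 with the block). The dimmest, 1441761_at, averaged 5.64 ± 0.24 in OIL and 5.80 ± 0.57 in TAM (SD, n = 5) and differed by 0.16 with a 95% interval of -0.39 to 0.71. The highest of its values, 6.67, came from TAM F3.2. With the mean of all 4 probe sets the difference of Sla was -0.44 and was not called with the block (adjusted p = 0.129).

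Sla2, the second adaptor of this family, did not share these differences in value. Its brighter probe set lay between 8.01 and 8.43 in OIL and between 7.94 and 8.62 in TAM, with a difference of 0.05 and a 95% interval of -0.25 to 0.35. The other, 1437504_at, read 7.07, 7.19, 6.79, 6.93 and 7.12 in OIL and 7.16, 7.45, 7.44, 7.22 and 7.15 in TAM. It was higher in TAM in 5 of 5 labels, by 0.26 on average, without passing (limma adjusted p = 0.379, and 0.199 with the block).

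Ubash3a (STS-2) and Ubash3b (STS-1), related proteins of which Ubash3b is the active phosphatase towards Zap70 and Syk, had small differences. The 2 probe sets of Ubash3a differed by -0.11 (95% interval -0.46 to 0.24) and 0.12 (-0.20 to 0.44). The brightest Ubash3b probe set, 1429475_at, read 5.71, 5.38, 6.28, 5.99 and 6.22 in OIL and 5.26, 5.35, 5.69, 5.94 and 6.08 in TAM, a mean difference of -0.25 with 5 of 5 labels lower. The other pair of Ubash3b probe sets differed by -0.23 and -0.07, and none of the 3 passed in either fit (limma adjusted p between 0.22 and 0.844). The Ubash3b probe sets were dim, the lowest with a mean of 4.68 over all arrays, so a difference there may be understated.

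**Figure D2:**
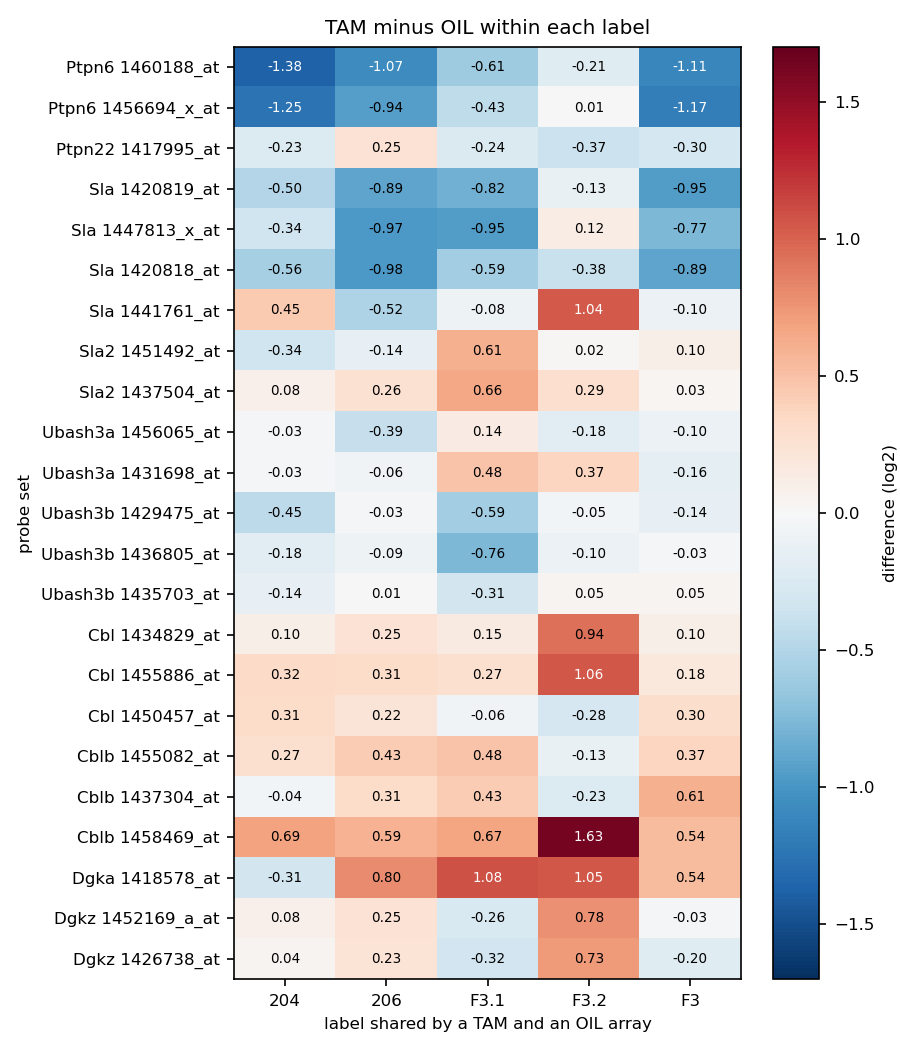
TAM minus OIL (log2) of the 23 probe sets within each of the 5 labels, with red for higher and blue for lower values in TAM. Ptpn6 and the upper 3 rows of Sla lie between -1.38 and -0.34 in labels 204, 206, F3.1 and F3 and between -0.38 and 0.12 in F3.2, where 2 probe sets of Cbl, both of Dgkz, that of Dgka and 1 each of Sla and Cblb reach between 0.73 and 1.63.

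Transcripts of the ubiquitin ligases had higher mean values in TAM. For Cbl, the probe set 1434829_at read 10.45, 10.23, 10.12, 9.93 and 10.81 in OIL and 10.55, 10.48, 10.27, 10.87 and 10.91 in TAM. Its differences within labels were 0.10, 0.25, 0.15, 0.94 and 0.10, so that the mean of 0.31 rested largely on F3.2 and was 0.15 without that label. A second probe set, 1455886_at, was also highest in F3.2, with 1.06 there, 0.18 to 0.32 in the others, and a mean of 0.43 that was 0.27 without F3.2. Neither passed (limma adjusted p = 0.564 and 0.585 without the block, 0.241 and 0.14 with it), and the dimmest probe set of the gene differed by 0.10.

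Cblb, the ligase best known for keeping mature T cells from responding without costimulation, had 3 probe sets with differences of 0.28, 0.22 and 0.82. The 0.28 was 0.05 without OIL F3 and 0.50 without TAM F3, and the 0.22 was 0.02 and 0.32. The largest was that of the dimmest, 1458469_at, which read 6.04, 6.18, 5.39, 5.32 and 5.56 in OIL and 6.73, 6.77, 6.06, 6.95 and 6.10 in TAM. Within labels it was higher by 0.69, 0.59, 0.67, 1.63 and 0.54. It missed the limit (limma adjusted p = 0.221 without and 0.0518 with the block). The brightest, 1455082_at, read 9.26, 9.31, 8.60, 8.97 and 7.85 in OIL and 9.52, 9.74, 9.08, 8.84 and 8.22 in TAM, higher in 4 of 5 labels and lower by 0.13 in F3.2. With the mean of the 3 probe sets, a setting in which 3.14% of genes were called with the block, Cblb rose by 0.44 (limma adjusted p = 0.0124, against 0.516 in the fit without the block). That mean joins opposite signs in F3.2, where the 3 probe sets differed by -0.13, -0.23 and 1.63. None of the 3 passed on its own with the block (limma adjusted p = 0.178, 0.372 and 0.0518).

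Dgka and Dgkz, the kinases that remove diacylglycerol, differed in how their labels behaved. Dgka read 9.03, 8.77, 9.09, 9.04 and 9.87 in OIL and 8.72, 9.58, 10.17, 10.10 and 10.41 in TAM. The difference was 0.80, 1.08, 1.05 and 0.54 in labels 206, F3.1, F3.2 and F3 and went the other way, at -0.31, in label 204. Its mean of 0.63 had a 95% interval of -0.06 to 1.32 without the block and did not pass (limma adjusted p = 0.493, and 0.144 with the block). Without label 204, the only label that went the other way, the blocked difference was 0.87 with an adjusted p of 0.0502. With any other label left out it was between 0.52 and 0.66, with an adjusted p between 0.237 and 0.319.

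The brighter Dgkz probe set read 11.33, 11.19, 11.49, 11.35 and 11.62 in OIL and 11.41, 11.43, 11.22, 12.13 and 11.59 in TAM. Only F3.2 stood out, at 0.78 against -0.26 to 0.25 in the other labels, and the mean difference was 0.16, or 0.01 without that label. The other Dgkz probe set gave 0.73 in F3.2 and -0.32 to 0.23 elsewhere. Neither passed in either fit (limma adjusted p between 0.544 and 0.885).

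**Figure D3:**
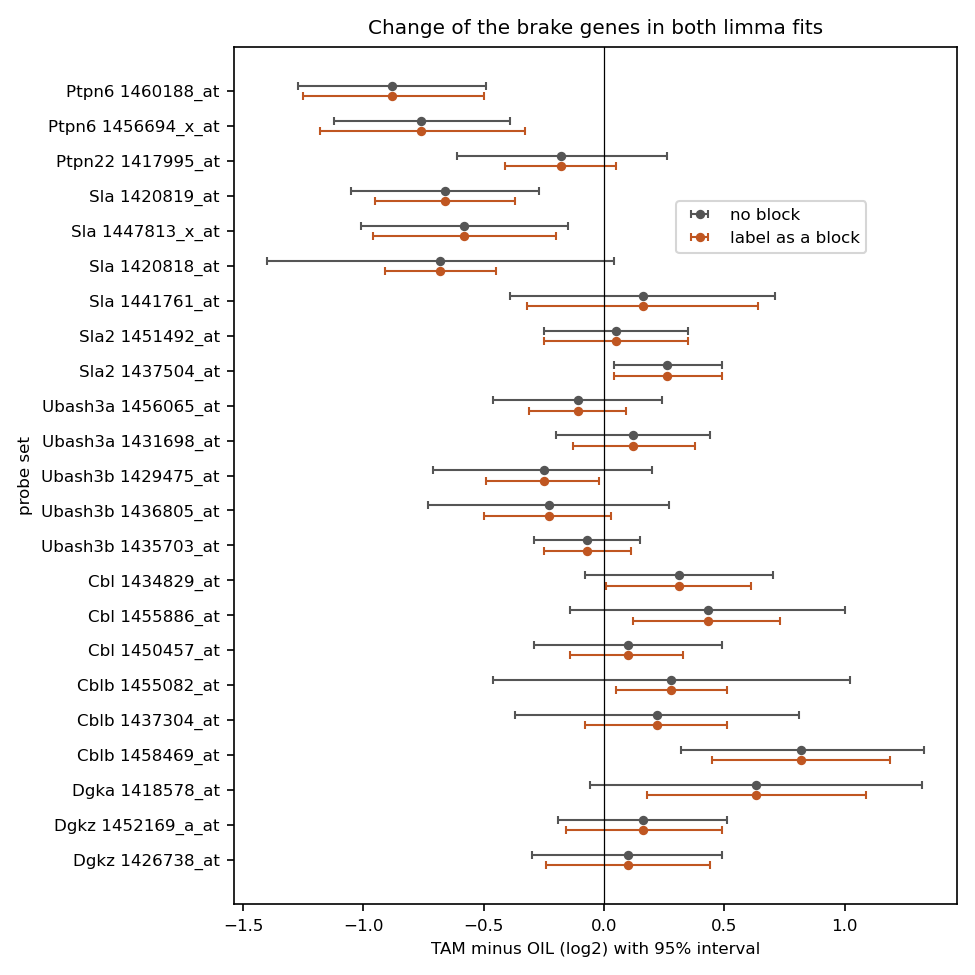
TAM minus OIL (log2) of the 23 probe sets with 95% intervals from limma, in the fit without the label (grey) and with the label as a block (orange). Intervals of both Ptpn6 probe sets, 2 Sla probe sets, Sla2 1437504_at and Cblb 1458469_at exclude 0 in both fits, before adjustment for the 31526 probe sets tested.

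Same-sign differences in 5 of 5 labels were found for 9 of the 23 probe sets, 5 lower and 4 higher, against 10.6% lower and 9.19% higher among all tested. The lower ones were Ptpn6 1460188_at, 2 of Sla and 2 of Ubash3b. The higher ones were Sla2 1437504_at, 2 of Cbl and Cblb 1458469_at. Such counts rest on the pairing of arrays by label, which was weakest for F3.2, where the deviations of the OIL and TAM arrays from their group means correlated at 0.27 against 0.61 to 0.79 in the other labels.

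The blocked calls depended on single labels. The count of called brake probe sets was 0 without label 204, 206, F3.1 or F3, in fits that called 0.301%, 0.739%, 0.222% and 0.425% of all probe sets (limma), and 7 without F3.2, when 2.25% of all were called. Those 7 were both of Ptpn6 (-1.04 and -0.95, adjusted p = 0.014 and 0.0234), 3 of Sla (-0.79, -0.76 and -0.76, adjusted p = 0.0138, 0.0266 and 0.0167) and 2 of Cblb (0.62 and 0.39, adjusted p = 0.0129 and 0.0442). Over all 5 fits that left out a label, the blocked difference of Ptpn6 1460188_at stayed between -1.04 and -0.75 and that of Sla 1420818_at between -0.76 and -0.61. A label entered as a random block instead called 4 brake probe sets, both of Ptpn6, Sla 1420819_at and Cblb 1458469_at, against 2.63% of all. With only the brightest probe set of each gene tested, the blocked fit called Ptpn6 and Sla, the latter at 1420819_at (adjusted p = 0.0366 and 0.0389), against 3.38% of genes. When probe sets were averaged per gene instead, Cblb was the only brake gene called in the blocked fit. Ptpn6, at -0.82, then just missed the limit (limma adjusted p = 0.0501), and Sla was not called either.

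**Figure D4:**
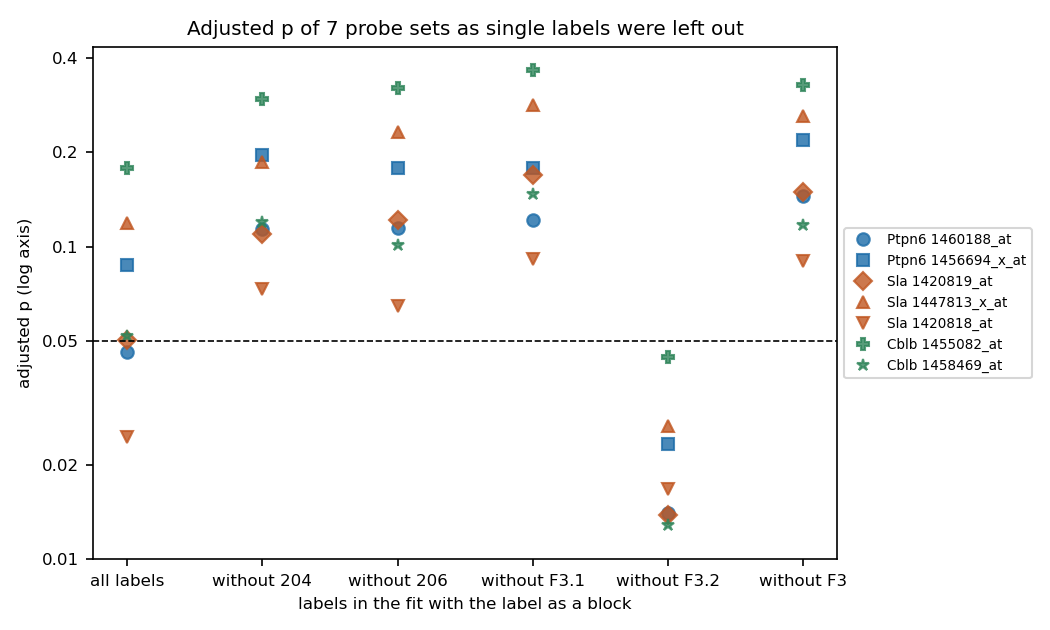
Adjusted p (log axis) in the limma fit with the label as a block, for all labels and with each label left out, of the 7 brake probe sets that passed without F3.2 (chosen after their values were seen). The dashed line is at 0.05, and all 7 points lie below it only where F3.2 was left out.

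Apart from treatment, the brakes were compared between the F3 labels (6 arrays) and labels 204 and 206 (4 arrays). With each array counted on its own and both treatments averaged, 4 of 23 probe sets passed (limma adjusted p under 0.05), against 5.7% of all. Of these, 3 were higher in the F3 labels and 1 lower, against 2.49% and 3.21%. The OIL and TAM arrays of a label deviated together, so these p-values are too small and the intervals too narrow. With 1 mean per label, 3 labels against 2, none passed (limma, 0 of 23 called, against 0.875% of all, and 8 with an unadjusted p under 0.05, against 14.1%). Arrays of the families did not overlap for 3 of 23, 2 of Cblb and 1 of Ubash3b, against 8.85% of all. Ptpn22 was higher in the F3 labels, at 10.88 to 11.58 against 10.55 to 10.92, by 0.53 (95% interval 0.27 to 0.79, adjusted p = 0.0323, and 0.165 with 1 mean per label). Ubash3b was higher as well, by 0.61 and 0.64 at 2 of its 3 probe sets (adjusted p = 0.0157 and 0.0262, and 0.0756 and 0.107 with 1 mean per label). Cblb was lower in the F3 labels, by 0.72 at 1437304_at (from 8.02 to 7.30, adjusted p = 0.048, and 0.165 with 1 mean per label) and by 0.86 at 1455082_at, where all 4 arrays of 204 and 206 (9.26 to 9.74) lay above all 6 F3 arrays (7.85 to 9.08, adjusted p = 0.0686). The difference of Dgka was 0.75 (adjusted p = 0.0796), and that of Ptpn6 was -0.03 and 0.08.

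The calls over arrays also rested on single arrays. Their count was 0 without OIL 206 or TAM 204, 1 without OIL 204, OIL F3.1 or TAM 206, and 2 without TAM F3. Arrays of a family may share an origin that the labels do not state, and all F3 titles but that of TAM F3 carry a common number. These p-values therefore cover only the spread between the arrays, and the fit with 1 mean per label takes the labels as separate.

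**Figure D5:**
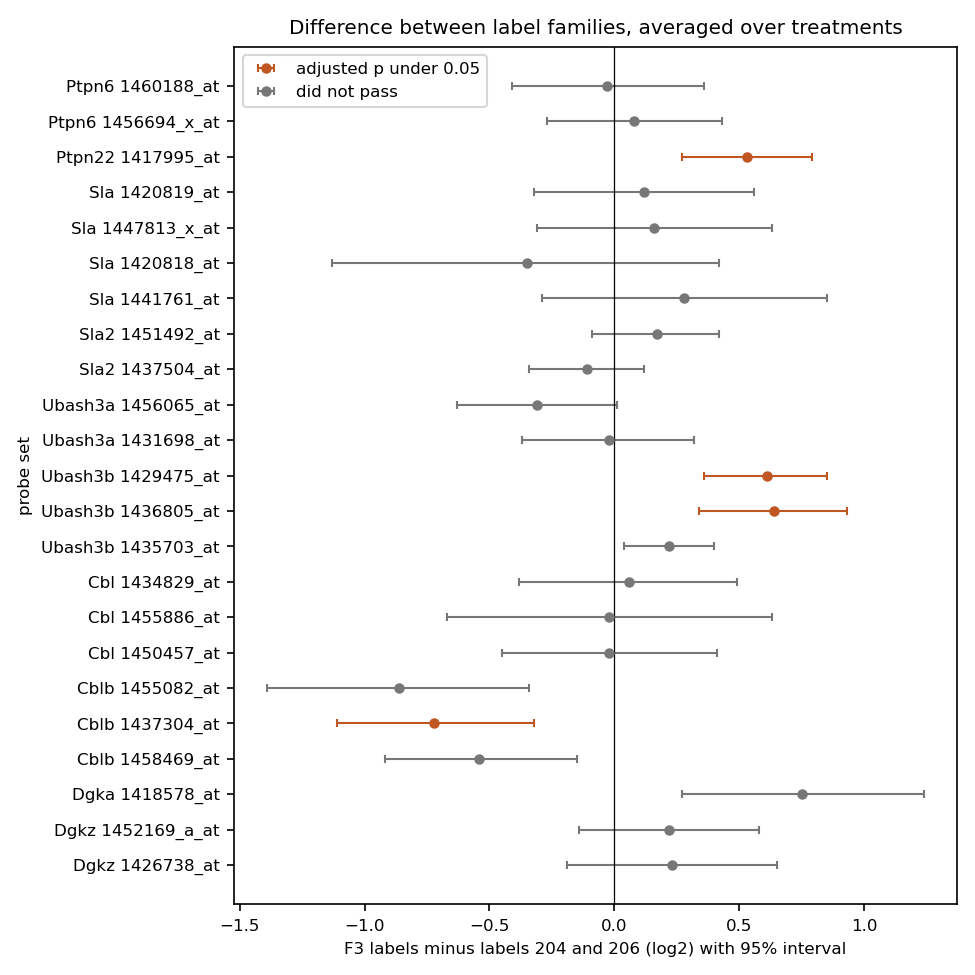
Difference between the F3 labels and labels 204 and 206 (log2, averaged over OIL and TAM) of the 23 probe sets with 95% intervals from limma, in orange where the adjusted p was under 0.05 with each array counted on its own; none was with 1 mean per label. Ptpn22 and 2 probe sets of Ubash3b lie to the right and Cblb 1437304_at to the left.

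Whether the difference between TAM and OIL varied between the families was tested as an interaction. Ptpn6 1460188_at differed between TAM and OIL by -0.64 in the F3 labels and by -1.23 in labels 204 and 206, 0.58 apart with a 95% interval of -0.19 to 1.35. For Dgka the values were 0.89 and 0.24, 0.65 apart (-0.32 to 1.61). For Sla 1420819_at they were -0.64 and -0.70, 0.06 apart (-0.81 to 0.94). No brake probe set passed, without or with the block (limma, 0 called, and 0 with a p under 0.05 before adjustment). Of all probe sets 0% were called, and 2.57% and 5.2% had a p under 0.05 before adjustment.

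Other brakes and adaptors of the same pathway are given by list, and a place on a list does not make a gene a brake. Each count is to be read against the shares of all probe sets, 0.102% called without and 1.8% with the block, and 10.9% and 20% with an unadjusted p under 0.05. Of 22 tested probe sets of 10 further phosphatases and inhibitory kinases, 0 were called without the block (limma, 3 with an unadjusted p under 0.05) and 1 rose with it (3). That was a dim probe set of the receptor-type phosphatase Ptprj (CD148), by 0.84, from 4.89 ± 0.68 to 5.73 ± 0.37 (SD, n = 5). Its adjusted p was 0.0291 with the block and 0.362 without, and it was higher in 5 of 5 labels. The other tested Ptprj probe set differed by 0.13 (limma adjusted p = 0.293 with the block). Of 36 tested probe sets of 18 adaptors and RAS inhibitors, 27 had higher and 9 lower mean values in TAM. Before adjustment, 9 had a p under 0.05 without the block and 14 with it (limma). Among them were several of Spred1 (differences of 0.26 to 0.58 over its tested probe sets) and those of Rasa2 (0.76 and 0.70). Probe sets of a gene are repeated readings of it, so these counts are not counts of genes. Of the 36, limma called 0 without the block, and 1 fell with it, that of the T cell adaptor Sh2d2a, which binds Lck. It fell by 0.68, from 8.79 ± 0.23 to 8.12 ± 0.18 (adjusted p = 0.0264, and 0.0895 without the block).

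Of 32 tested probe sets of 11 further ubiquitin ligases and regulators, 0 were called without the block (limma, 6 with an unadjusted p under 0.05) and 2 rose with it (11). These were 1 of Peli1, a ligase that restrains NF-kB in T cells (0.59, from 9.03 ± 0.11 to 9.62 ± 0.22, SD, n = 5, adjusted p = 0.0236, and 0.0868 without the block), and 1 of Rc3h2, a paralogue of the RNA-binding Roquin (0.36, adjusted p = 0.043, and 0.425 without the block). The brightest Rc3h2 probe set differed by 0.35 and did not pass (limma adjusted p = 0.159 with the block), and differences at its other tested probe sets went down to 0.02. Of 10 tested probe sets of 5 other diacylglycerol kinases, limma called 0 without the block (1 with an unadjusted p under 0.05) and 0 with it (2). The list medians were -0.01, 0.15, 0.03 and 0.10 in the order given.

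Among the signalling proteins on which the brakes act, from the CD3 chains to protein kinase C, 1 of 49 tested probe sets was called with the block, against 1.8% of all, and 0 without it (limma). At an unadjusted p under 0.05 there were 10 with the block, against 20%, and 6 without it, against 10.9%, so these shares were near those of all probe sets. The called one was that of Prkch, the eta isoform of protein kinase C, which fell by 0.64, from 10.19 ± 0.14 to 9.55 ± 0.26 (SD, n = 5, adjusted p = 0.0334, lower in 5 of 5 labels). The median of this list was 0.02.

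By the correlation of values over the 10 arrays among 14397 other genes, each by its brightest probe set, the gene most like Ptpn6 was Sh2d2a (r = 0.96, rho = 0.95), followed by Tspan32 (0.93, 0.93) and Rilpl2 (0.90, 0.83). Those most like Sla were Rptoros (0.97, 0.90), Rab1b (0.95, 0.95) and Msrb1 (0.94, 0.88). The arrays share treatment groups and labels, and these values describe likeness over them only.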

How the data were processed

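Biotin-labelled targets from 200 ng of total RNA were hybridised to 10 oligonucleotide arrays. The authors deposited log2 values from RMA, as the submitters' processing notes name it, with no version. RMA subtracts background, gives every array the same distribution and combines the probes of a probe set, so a shift common to all genes is lost. Values ran from 1.74 to 14.02. Precision is limited by the number of arrays. Names came from the platform annotation, and probe sets with several symbols (932) or none listed (9211) were not named. The 64 control probe sets and the dimmest 30% of the rest by mean over all arrays were left out, and 31526 were tested one by one. The 23 probe sets of the brake genes all passed that filter.

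Tests of TAM against OIL used limma 3.58.1 in R 4.3.3 (data.table version 1.17.8), with Benjamini-Hochberg adjustment over all tested probe sets, without a block (8 residual degrees of freedom) and with the label as a block (4). The pairing comes from names shared by the groups. Deviations of same-label arrays from their group means correlated at 0.27 (F3.2), 0.61 (F3.1), 0.73 (204 and 206) and 0.79 (F3), all above the limit of 0.1. Even so, both F3.2 arrays and the TAM array of F3.1 were closest to another label. Label family (names starting with F3 against 204 and 206) and its interaction with treatment were tested in a second model. Since arrays of a label deviated together, the families were also compared with 1 mean per label. Fits were tested on simulated data. All probe sets of the 10 genes are named, as are Ppp3r1, called members of the other lists and, for likeness, 3 genes each for Ptpn6 and Sla. The genes, lists and tests were chosen with earlier results of these data known. Alternatives were a random block, other filters and normalizations, 1 value per gene, trend and robust variances, array weights, averaging OIL F3.1 with OIL F3.2, and leaving out arrays or labels. The mean without F3.2, the fit on label means and the blocked fits with another filter, normalization or value per gene were added after the data were seen.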

Additional observations from a re-analysis of the deposited data

Results flagged for a closer look

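In 3 of the 46 sets of 5 arrays (6.52%), 1 array lay far from the other 4. The nominal rate of that rule is about 1 in 20 for independent, normally spread values. Probe sets of a gene are not independent, and the share among all probe sets was not counted. All 3 were in arrays of label F3. Dgka in OIL F3 was 9.87, above the 8.77 to 9.09 of the other OIL arrays, and Cbl 1450457_at in OIL F3 was 6.26. Ubash3a 1456065_at in TAM F3 was 7.59, and the OIL array of that label, at 7.69, was also the lowest of its group. In Sla2 1451492_at all 3 F3 labels were higher in TAM (0.61, 0.02 and 0.10) and both other labels lower (-0.34 and -0.14). The difference between the families, 0.49 (95% interval -0.02 to 1.00), did not pass in limma (adjusted p = 1, unadjusted p = 0.0595).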

How the results depend on the processing

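In 21 alternative settings, 443 of 455 differences of single brake probe sets kept their sign and their side of the limit, 6 passed it only with a replicate block, and 6 changed sign. Without a block, no setting called a brake probe set; with the label as a replicate block 2 were called and with a random replicate block 4, against 32, 568 and 830 of all probe sets. The blocked count of 2 was 4 with the dimmest 50% left out and 1 after a further quantile normalization, and ranged from 0 to 7 as labels were left out. The count between label families, 4, ranged from 0 to 4 as arrays were left out and was 0 with 1 mean per label, a fit with fewer samples. Signs turned for Ubash3a 1456065_at with the mean of its probe sets (0.01) and, as single arrays were left out, for Sla 1441761_at (-0.06 to 0.31), Sla2 1451492_at (-0.04 to 0.13), Cbl 1450457_at (-0.04 to 0.21), Dgkz 1426738_at (-0.06 to 0.20) and Ubash3b 1435703_at (-0.11 to 0.00). Of all probe sets, 11 to 43 were called without single arrays, 60 with 1 probe set per gene, 70 with array weights and 11 with OIL F3.1 and OIL F3.2 averaged. The cause of these shifts was not tested. At the 50% limit Ubash3b 1436805_at and 1435703_at had no value.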
